A study of Homo sapiens with 8 samples.

Results

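Strongly paused promoters were genes at which RNAPII read density near the transcription start site (TSS) far exceeded that over the gene body. The data are PRO-seq counts, which map transcribing RNAPII by labelling nascent RNA in a nuclear run-on, from HCT116, a human colorectal carcinoma cell line. The 610 genes were chosen by their reads in the 2 libraries of wild-type (WT) cells in normoxia: together these held at least 100 TSS reads, at least 40 body reads and a TSS-to-body ratio of at least 64. They made up 5.72% of the 10665 genes that met both count minimums and 2.63% of the 23193 genes counted. The ratio, a pausing index, was the read count per base of the TSS region (50 bases before to 500 bases after the start) divided by that of the gene body (from 1 kb past the start to the end of the gene).

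The study paired oxygen level with HIF1A, the oxygen-regulated subunit of the transcription factor HIF1, in 4 groups of 2 libraries each. These were WT cells in normoxia, WT cells after 90 min at 1% O2 (hypoxia), HIF1A-/- cells in normoxia and HIF1A-/- cells after the same hypoxia, all with the solvent DMSO in the medium. The HIF1A-/- line derives from the same HCT116 parent, with *HIF1A* exons disrupted by homologous recombination. The labels name no second HIF1A-/- line, so genotype and line history cannot be told apart. The study's methods describe the 2 replicates of each group as independent biological samples, and p-values rest on the spread between them. *HIF1A* itself had 129 to 164 gene body CPM (reads scaled to a library total of 1000000 in the same table) in the 4 WT libraries and 141 to 172 CPM in the 4 HIF1A-/- libraries. The counts cover the gene beyond the disrupted exons, so that they do not check the genotype.

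Library totals ran from 2783581 to 5966348 TSS reads and from 18125234 to 23622392 gene body reads. TSS reads amounted to 0.203 to 0.253 of body reads in 6 libraries, and to 0.127 and 0.148 in replicate 1 of HIF1A-/- normoxia and of HIF1A-/- hypoxia. These 2 libraries had the fewest TSS reads per body read, and ratios from them are given separately below. The epithelial markers *EPCAM*, *CDH1*, *KRT8*, *KRT18*, *KRT19* and *CDX2* were transcribed in every library, *LGR5* had 2.05 to 8.42 body CPM, and *VIL1*, *CDX1* and *CEACAM5* did not exceed 0.635 body CPM. *KRT20* was at 0.105 to 0.607 body CPM in the 4 WT libraries and at 5.73 to 10.3 CPM in the 4 HIF1A-/- libraries, and the part of this line difference in the results was not tested. Of 9 markers of blood, endothelium, fibroblasts, liver and glia, 7 did not exceed 0.444 body CPM, while *VWF* reached 26.2 CPM and *COL1A1* 50.3 CPM.

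Soon after initiation, RNAPII is held a short distance downstream of the start by the factors DSIF and NELF, and the kinase P-TEFb releases it into productive elongation. Where release is slow relative to initiation, polymerase accumulates at the promoter and the gene body holds few reads. HIF1 recognises hypoxia response elements with the core ACGTG and is known to act on release as well as on recruitment, with glycolysis, angiogenesis and oxygen sensing among its target programmes. A high ratio can equally mark a promoter whose transcription ends early, and counts alone do not separate a held polymerase from one that terminates.

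Promoter sequence is shown for 5 genes around which the results turn. *P4HA1*, *EGLN3* and *ANGPTL4* are HIF targets, *LINC00673* had the most TSS reads, and *KCTD16* was among the highest ratios and faces another gene. Each line runs 5′ to 3′ on the strand of the gene, from 120 bases before to 30 bases from the annotated start, in build GRCh37. Capitals mark matches on either strand to the core ACGTG, to the TATA motif TATAAA or to the GC box GGGCGG. The windows are chr10:74856703-74856852 (minus strand), chr14:34420255-34420404 (minus), chr19:8428890-8429039 (plus), chr17:70588916-70589065 (minus) and chr5:143550316-143550465 (plus).
P4HA1: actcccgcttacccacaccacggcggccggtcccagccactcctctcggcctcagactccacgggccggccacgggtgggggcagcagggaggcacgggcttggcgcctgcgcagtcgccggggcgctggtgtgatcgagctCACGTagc
EGLN3: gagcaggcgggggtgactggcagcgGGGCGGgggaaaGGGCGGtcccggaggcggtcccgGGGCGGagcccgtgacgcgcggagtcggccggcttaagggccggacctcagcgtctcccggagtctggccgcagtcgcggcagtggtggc
ANGPTL4: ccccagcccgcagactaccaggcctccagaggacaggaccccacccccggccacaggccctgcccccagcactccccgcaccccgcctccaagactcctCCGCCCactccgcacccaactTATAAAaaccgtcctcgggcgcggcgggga
LINC00673: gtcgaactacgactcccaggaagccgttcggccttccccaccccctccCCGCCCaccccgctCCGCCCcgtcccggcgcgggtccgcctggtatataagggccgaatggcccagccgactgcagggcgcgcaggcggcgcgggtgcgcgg
KCTD16: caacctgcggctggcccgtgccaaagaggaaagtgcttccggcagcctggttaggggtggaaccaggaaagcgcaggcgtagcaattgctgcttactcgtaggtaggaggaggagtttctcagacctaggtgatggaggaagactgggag
The *P4HA1* window holds 1 ACGTG core just inside the transcribed strand, *EGLN3* holds 3 GC boxes, and the *KCTD16* window holds none of the 3 motifs. A match is a description of letters and not of bound protein.

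Across 300-base windows (250 bases before to 50 after the start), strongly paused promoters resembled other active promoters in base composition. Their median GC content was 66.3%, against 65.3% over all 10665 genes that met the count minimums, and the median observed-to-expected CpG ratio was 0.86 against 0.84. The GC box GGGCGG occurred in 80.7% of strongly paused windows and in 73.9% of all windows. TATAAA occurred in 4.92% and 5.03%, CCAAT in 34.8% and 36.1%, and ACGTG in 23.9% and 27.4%. The ETS motif CCGGAAG was present in 15.2% of the windows of strongly paused genes and in 19.5% of all. AP-1 (TGACTCA) was found in 3.11% and 2.67%, CRE (TGACGTCA) in 3.28% and 3.33%, the E-box CACGTG, which contains ACGTG, in 8.03% and 10.3%, and the NRF1 motif in 2.95% and 2.57%. All motifs were searched on both strands, and these differences were not tested.

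Of the 10 highest ratios, 6 belonged to noncoding genes. *LOC100996255* came first at 1910, but only 6% of 75-base tiles from its body and 20.8% of those from its TSS region could be placed uniquely in the genome. Scaling both lengths by those shares lowered its ratio to 550.04. The antisense RNA *STEAP2-AS1* followed at 1431 with 819 TSS reads against 341 reads over its whole body, then *STPG2*, a sperm-tail protein gene, at 1160 and *LOC100506207* at 1107. *LOC105378828* (997), *KCTD16* (780.4), which encodes an auxiliary subunit of GABA-B receptors, *CPEB2-AS1* (753), *C8orf37-AS1* (711), *LRRIQ3* (685) and *TMEM56* (667) completed the first 10. More than 50% of the *TMEM56* body overlaps another counted region on the same strand, as in 12 of the 610 genes. With the shared bases taken out of its body length but all body reads kept, its ratio was 4.92.

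The genes with the most TSS reads were of another kind. *LINC00673*, a long noncoding RNA gene, had 12047 reads and a ratio of 322, the histone gene *HIST1H2BD* 9470 reads and a ratio of 87.1, and *ZNF143*, a zinc finger activator of many promoters, 5371 reads and a ratio of 191. *INTS2*, a subunit of the Integrator complex that attenuates paused RNAPII, had 4855 TSS reads and a ratio of 110.03. *TNFSF9*, the ligand of the T cell costimulator 4-1BB, had 4611 reads and a ratio of 84.1. At the threshold itself the genes are a continuum: *NT5DC1* (64.03) and *PEPD* (64.15) lay just inside, and *MMAA* (63.994) and *ATG4C* (63.990) just outside.

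Noncoding genes took a larger share of strongly paused promoters than of other active promoters. Of the 610 genes, 460 were protein coding, 127 noncoding and 22 pseudogenes, by RefSeq gene type, and 1 was not matched. Noncoding genes made up 20.8%, against 7.24% of the 3939 genes with a ratio of 16 to 64 and 7.01% of the 6116 genes under 16. Symbols of antisense transcripts accounted for 8.03%, against 2.82% and 2.62%. The share of active genes that were strongly paused ran from 1.95% on chromosome 19 to 11.7% on chromosome 4. Gene bodies of strongly paused genes had a median length of 66.5 kb, against 34.9 kb and 14.3 kb in the other classes. Length enters the ratio, and therefore these values describe the choice of genes as much as the genes.

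Many strongly paused promoters are shared. In 178 genes (29.2%) the nearest start on the opposite strand lay within 1000 bases and pointed away, against 21.7% of genes with a ratio of 16 to 64 and 17.2% of those under 16. The partner had more reads per kb in its body for 150 of the 178 genes (84.3%), with a median partner-to-own density of 4.84. Where both genes of a pair were strongly paused, the pair counts once from each side. At the TSS, the partner had a median of 0.785 of the reads of the strongly paused gene, close to the 0.777 of the class of 16 to 64 and below the 1.08 of the class under 16. Low body density was part of the rule, so that some imbalance is built in. The partner body was denser for 57.4% of such genes in the class of 16 to 64 and for 33.4% under 16.

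Single pairs show the imbalance plainly. *KCTD16* had 456 TSS reads and 1.06 body reads per kb in WT normoxia, while its partner *YIPF5*, a Golgi membrane protein gene starting 158 bases away, had 671 TSS reads and 52.5 body reads per kb. *LOC100506207* had 1511 TSS reads and *SLC35B3*, a nucleotide sulfate transporter gene, 437. Yet the body of *LOC100506207* held 2.48 reads per kb and that of *SLC35B3* 90.4. *CATSPERD*, a sperm calcium channel subunit gene, and *LONP1*, a mitochondrial protease gene, had 543 and 538 TSS reads. Their bodies held 2.14 and 237 reads per kb. Of the 178 partners, 22 (12.4%) were strongly paused themselves, among them *CPEB2* (ratio 388) beside *CPEB2-AS1*. Strongly paused partners made up 9.35% in the class of 16 to 64 and 5.97% in the class under 16.

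**Figure D1:**
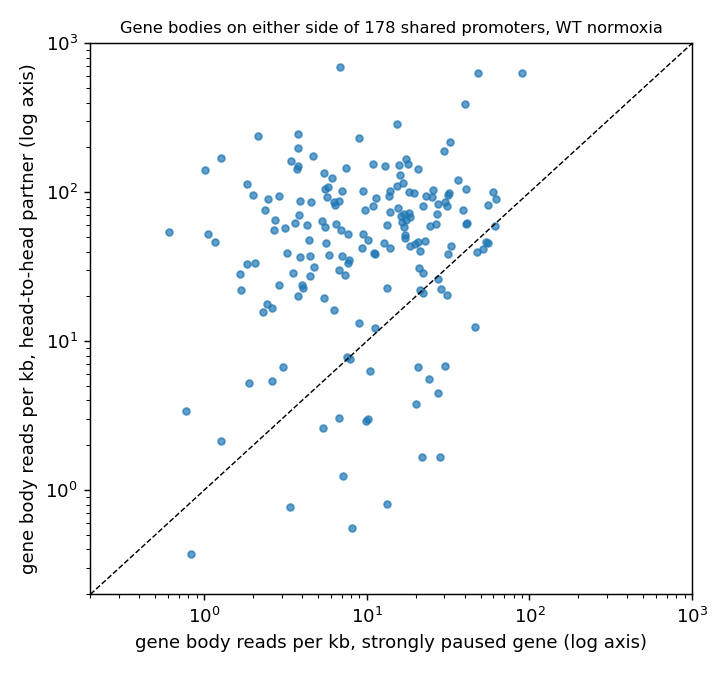
Gene body reads per kb in WT normoxia (both axes logarithmic) of 178 strongly paused genes (horizontal) and of their head-to-head partners (vertical), 1 point per strongly paused gene, with a dashed line at equality. For 150 genes the point lies above the line, where the partner body is denser. Pairs in which both genes are strongly paused give a point from each side.

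Gene lists set the strongly paused promoters against known programmes. Of 37 HIF targets that met the count minimums, 5 were strongly paused (*EGLN3*, *PPFIA4*, *NDRG1*, *ANGPTL4* and *P4HA1*), and the list median was 11.3 beside 13.5 over all active genes. The Notch ligand gene *DLL4*, the Wnt receptor gene *FZD4* and *HBEGF*, an EGF receptor ligand gene, represented 44 growth factor and Wnt genes. The calcium, potassium and sodium channel genes *CACNA2D2*, *KCNN3* and *SCN8A* represented 17 synapse and ion channel genes. None of 32 immediate early genes (highest ratio 32.2, *NR4A2*), 41 pausing factor genes (56.7, *CDK13*), 24 heat shock genes, 35 homeobox genes or 52 replication and cell cycle genes reached 64. Among 68 cytosolic ribosomal protein genes the median ratio was 4.06 and the highest 16.5. Strongly paused genes made up 5.72% of all genes that met the minimums, and no list was tested against that share. The counts in these short lists are therefore no result about a programme.

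The ratio was then followed in the 6 libraries that did not choose the genes. In WT hypoxia, whose libraries share the WT line with those that chose the genes, 580 of 610 (95.1%) were again at 64 or above. The median ratio was 113, beside 96.9 in WT normoxia. In HIF1A-/- cells 408 (66.9%) reached 64 in normoxia and 439 (72.0%) in hypoxia, with medians of 76.8 and 80.6. The lowest HIF1A-/- values were those of replicate 1, with medians of 59.1 and 69.2 and with 45.1% and 55.4% of genes at 64 or above. Replicate 2 had medians of 91.9 and 89.8, and 84.3% and 82.8% of genes. The same 2 libraries had the fewest TSS reads per body read over the whole table.

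Other active genes moved in parallel. Relative to WT normoxia, the median ratio of genes with 16 to 64 was 1.20 times as high in WT hypoxia, 0.761 times in HIF1A-/- normoxia and 0.828 times in HIF1A-/- hypoxia, and strongly paused genes had 1.17, 0.792 and 0.831. Within the 610 genes, 242 (39.7%) were at 64 or above in all 6 libraries and 5 in none, namely *ANGPTL4*, *CGNL1*, *IL10RA*, *MRAP2* and *TRPM2-AS*. Genes chosen for a high value in 2 libraries tend to have lower values in others, and that part of the shift was not measured separately.

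**Figure D2:**
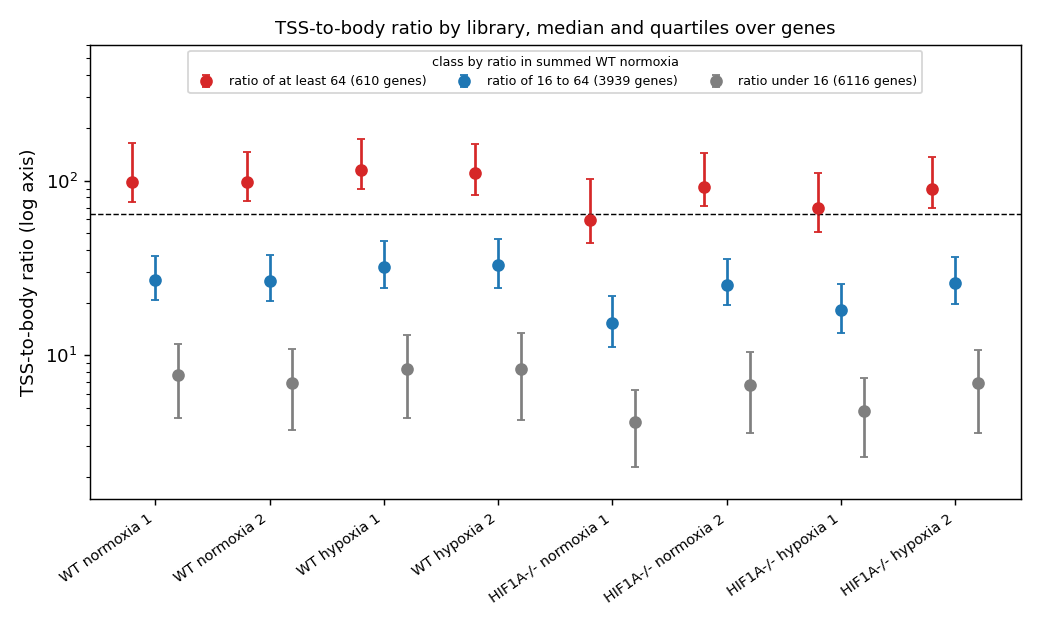
TSS-to-body ratio (logarithmic axis) in each of the 8 libraries for the 3 classes of genes defined by their ratio in summed WT normoxia; points are medians over genes, bars quartiles, and the dashed line is at 64. All 3 classes are lowest in replicate 1 of the HIF1A-/- groups, where strongly paused genes have medians of 59.1 and 69.2.

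Against that background, the genes with the largest decreases of the ratio in WT hypoxia included every strongly paused HIF target. The largest decreases from summed WT normoxia were at *ANGPTL4* (77.1 to 12.3), *LOC105370526* (201 to 37.6), *EGLN3* (159 to 49.1), *P4HA1* (66.2 to 21.3), *NDRG1* (110.4 to 38.3), *PPFIA4* (122 to 58.03) and *SAP30* (86.05 to 41.98). All 5 HIF targets on the list were among these 7 genes. The list was written with earlier results of these data known, so that this overlap is no independent support. These are descriptions, since the WT normoxia libraries chose the genes and fix the starting value high. In HIF1A-/- cells, whose 2 conditions did not choose them, the same genes went from 36.04 to 27.5, 74.5 to 85.2, 115 to 119, 54.3 to 65.6, 94.02 to 91.1, 71.9 to 66.8 and 61.3 to 67.3 in the same order.

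In *P4HA1*, which encodes the catalytic subunit of collagen prolyl 4-hydroxylase, the hypoxic lines differed over the gene body and not detectably at the TSS. Body reads were 139 and 105 CPM in WT normoxia and 547 and 706 CPM in WT hypoxia. In HIF1A-/- cells they were 148 and 131 CPM in normoxia, then 124 and 133 CPM in hypoxia. The 2 WT hypoxia libraries stood apart from all the others, and the 6 others overlapped. At the TSS the 8 libraries ran from 232 to 352 CPM. HIF1A-/- hypoxia was below WT hypoxia by a log2 fold change of -2.30 ± 0.20 (SE) in the body (adjusted p = 0.00141, quasi-likelihood test of edgeR, Benjamini-Hochberg adjustment over all genes), whereas the TSS difference was -0.19 ± 0.16 (adjusted p = 0.613). The ratio was therefore higher in HIF1A-/- hypoxia, by 2.099 ± 0.23 (adjusted p = 2.87e-04).

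*EGLN3* encodes PHD3, a prolyl hydroxylase that marks HIF subunits for degradation, and had the highest ratio on the HIF list. Its body reads were 14.5 and 15.4 CPM in WT normoxia, 53.0 and 85.4 CPM in WT hypoxia, while the HIF1A-/- libraries had 12.5 and 14.5 CPM in normoxia and 11.6 and 19.2 CPM under hypoxia. TSS reads were 238 and 237, 287 and 301, 159 and 229.7, and 160.4 and 258 CPM in the same order. Body reads were again highest in both WT hypoxia libraries. The difference between the hypoxic lines was -2.18 ± 0.28 in the body (edgeR adjusted p = 0.00778) and 1.63 ± 0.24 for the ratio (adjusted p = 0.00324).

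*NDRG1*, a stress-induced gene whose product restrains metastasis in several carcinomas, had more reads at both ends in WT hypoxia than in WT normoxia. Body reads were 54.5 and 79.7 CPM in WT normoxia and 342 and 799 CPM in WT hypoxia, and TSS reads 247 and 408, then 519 and 1103 CPM. HIF1A-/- hypoxia had 67.2 and 116 body CPM and 289 and 535 TSS CPM, both lower than WT hypoxia within each replicate number. The TSS difference was -0.999 ± 0.40 (edgeR adjusted p = 0.302). Replicate 2 had the higher TSS CPM in each of the 4 groups, and the test without a replicate block counts this as spread. The missing TSS call is thus no sign of equal TSS reads. The body differed by -2.65 ± 0.46 (edgeR adjusted p = 0.0278) and the ratio by 1.61 ± 0.23 (adjusted p = 0.00324).

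*ANGPTL4*, whose product inhibits lipoprotein lipase, had the largest decrease of the ratio in WT cells. Body reads were 10.1 CPM in both WT normoxia libraries, 81.0 and 209.6 CPM in WT hypoxia, whereas HIF1A-/- libraries had 20.2 and 27.2 CPM without and 32.1 and 44.1 CPM with hypoxia. TSS reads were 209.9 and 228 CPM in WT normoxia, 414 and 470.0 CPM in WT hypoxia, and 286 to 357 CPM in the 4 HIF1A-/- libraries, so that WT hypoxia was highest at the TSS as well. Its body differed between the hypoxic lines by -1.94 ± 0.38 (edgeR adjusted p = 0.0444) and its ratio by 1.43 ± 0.29 (adjusted p = 0.0420). *PPFIA4*, a liprin-alpha gene, had 61.6 and 65.5 body CPM in WT hypoxia and 31.4 and 46.6 CPM in HIF1A-/- hypoxia. The groups did not overlap, but the difference did not pass the test (-0.72 ± 0.23, edgeR adjusted p = 0.175).

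**Figure D3:**
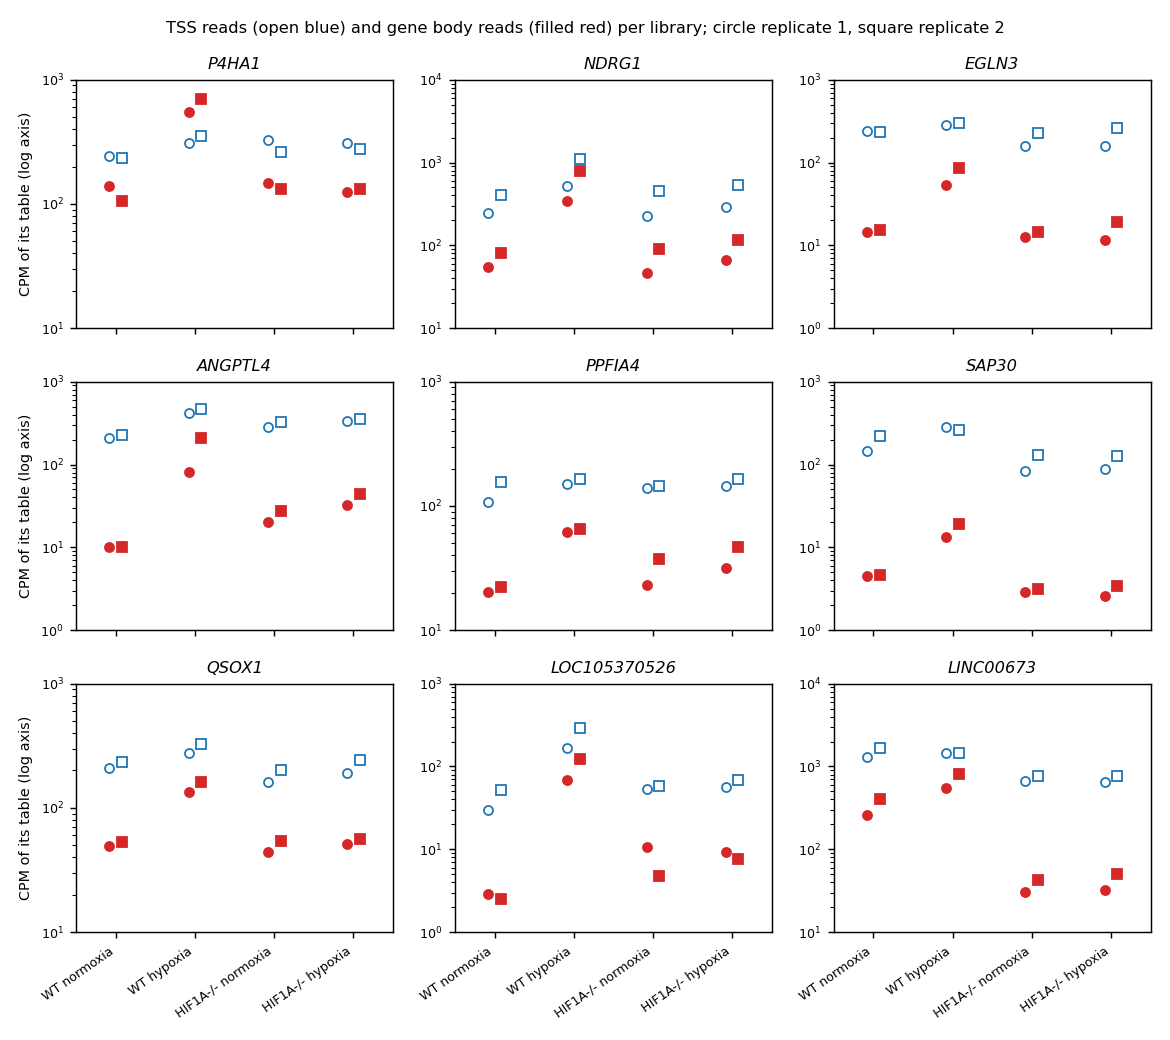
TSS reads (open symbols) and gene body reads (filled symbols) in CPM of their own table (logarithmic axes) for 9 strongly paused genes in the 4 groups, with replicate 1 as circles and replicate 2 as squares. In all 9 genes the 2 WT hypoxia libraries have the highest body reads of the 8 libraries, and in *LINC00673* body reads are 30.5 to 50.1 CPM in the 4 HIF1A-/- libraries. The genes were drawn from HIF targets, large ratio decreases in WT hypoxia and calls between the hypoxic lines, so that this pattern is partly built in.

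Within HIF1A-/- cells, no strongly paused gene passed the test for a difference between hypoxia and normoxia. The question was whether TSS reads, gene body reads or their ratio respond to low oxygen without HIF1A, and neither group had chosen the genes. At a false discovery rate (FDR) of 10%, edgeR called 0 of 610 genes higher and 0 lower for TSS reads, body reads and ratio alike, as it did over all 15212, 16686 and 14494 genes tested (0% in each case). At an unadjusted p under 0.05 there were 4, 11 and 13 of the 610 genes (0.656%, 1.80% and 2.13%, against 0.887%, 2.08% and 1.58% of all genes). With the replicate block these became 22, 88 and 47, still with 0 calls at 10% FDR, and DESeq2 also called 0. The matching shares of all genes under the block are not given, so that these blocked counts are no result about the 610 genes. Median log2 fold changes over the 610 genes were 0.03, 0.07 and -0.03, beside -0.01, 0.00 and 0.00 over all genes. *ANGPTL4* had the largest body difference among the 5 HIF targets (0.65), and the other 4 ran from -0.17 to 0.39.

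Between the hypoxic lines, HIF1A-/- against WT, differences were found at 37 strongly paused genes. WT hypoxia shares the WT line with the libraries that chose the genes. Gene body reads were lower at 23 of 610 genes (3.77%, against 2.79% of all genes) and higher at 6 (0.984%, against 1.47%). TSS reads were lower at 8 (1.31%, against 0.664%) and higher at 2 (0.328%, against 0.440%). The ratio was higher at 10 (1.64%, against 0.469%) and lower at 3 (0.492%, against 0.248%). With the replicate number as a block the counts rose for members and background together. Body reads were then lower at 147 (24.1%, against 15.1%) and higher at 36 (5.90%, against 13.1%), TSS reads lower at 122 (against 6.97% of all genes) and higher at 21 (3.44%, against 7.47%), and ratios higher at 23 (3.77%, against 3.69%) and lower at 17 (2.79%, against 2.86%).

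The numbers fell when single libraries were left out, which also weakens the test by leaving 1 library in that group. Without replicate 1 or 2 of HIF1A-/- hypoxia the body count fell to 8 or 11 genes, and without replicate 1 or 2 of WT hypoxia to 18 or 7. The TSS count became 0, 6, 4 and 0, and the ratio count 5, 5, 8 and 4, in the same order. When TSS reads were scaled by gene body library sizes instead of their own, ratios were higher at 2 genes and lower at 9, and TSS reads higher at 0 and lower at 23, since the lower TSS totals of HIF1A-/- libraries then count as change. All calls below are therefore relative to the typical gene of each table. Shares of all genes called in these omissions and under this scaling are not given. The counts in this paragraph thus cannot be compared with those of all genes.

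As a class, strongly paused genes sat slightly lower in HIF1A-/- hypoxia than in WT hypoxia. The median log2 fold change was -0.19 for TSS reads and -0.14 for body reads, with 450 and 410 of the 610 genes below 0. Genes with a ratio of 16 to 64 had medians of -0.11 and -0.01, with 2610 and 2065 of 3939 below 0. Those under 16 had 0.03 and 0.09, with 2853 and 2263 of 6116 below 0. For the ratio, the 3 medians were -0.02, -0.09 and -0.05. With TSS reads scaled by body library sizes, the medians of the 610 genes became -0.66 for TSS reads and -0.52 for the ratio. In single-library omissions the TSS median of the 610 genes ran from -0.30 to -0.09 and the body median from -0.32 to -0.03. In each of the 4 groups replicate 2 also gave strongly paused genes a larger share of reads than replicate 1, from 7.11% against 8.28% of TSS reads in HIF1A-/- normoxia to 8.32% against 8.91% in WT hypoxia. The part of this in the class medians was not tested.

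The 23 genes with lower body reads included most of those at least 2-fold higher in WT hypoxia than in WT normoxia. In 11 of the 23 genes body reads were at least 2-fold higher in WT hypoxia than in WT normoxia. In 4 they were already at least 2-fold lower in HIF1A-/- normoxia than in WT normoxia, with *LINC00673* in both sets and 9 genes in neither. Both comparisons use the WT hypoxia libraries, and WT normoxia chose the genes for low body density, so that part of this overlap is built in. Over all 610 genes, 16 (2.62%) were at least 2-fold higher in WT hypoxia, against 2.51% of all genes tested. The share was 0.812% of genes with a ratio of 16 to 64 and 0.801% of those under 16. The first set held *P4HA1*, *EGLN3*, *NDRG1* and *ANGPTL4* and, outside the HIF list, *QSOX1*, *SAP30*, *TMEM45A*, *PDK3*, *CAND1.11* and *LOC105370526*. *QSOX1*, a sulfhydryl oxidase gene of the secretory pathway, had 135 and 162 body CPM in WT hypoxia and 50.8 and 55.8 CPM in HIF1A-/- hypoxia (-1.49 ± 0.14, edgeR adjusted p = 0.00217). *SAP30*, a subunit of the SIN3 histone deacetylase complex, had 13.2 and 18.9 against 2.61 and 3.45 CPM (-2.42 ± 0.27, edgeR adjusted p = 0.00476). Its TSS reads were lower too (-1.33 ± 0.24, edgeR adjusted p = 0.0275). *PDK3*, a pyruvate dehydrogenase kinase gene, differed by -1.29 (edgeR adjusted p = 0.0377) and was chosen for mention after its values were seen.

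*LOC105370526*, an uncharacterised noncoding gene on chromosome 14, had the largest relative change of the body in WT cells. Its body (chr14:62182275-62216814, minus strand, GRCh37) overlaps the *HIF1A* body on the opposite strand over 32703 bases, or 94.7% of its length, so that it lies across the gene altered in the HIF1A-/- line. The libraries were strand-specific per the labels, and whether the counting used strand is not given in the sources used here. *HIF1A* had 134 and 150 body CPM in WT normoxia and 129 and 164 CPM in WT hypoxia, against 2.85 and 2.48 CPM at *LOC105370526* in WT normoxia. The separation of their reads was not tested. In 108 of the 610 genes the body overlapped another counted body on the opposite strand, in 32 over more than 50% of its length. *LOC101927755*, overlapped in this way over 100% of its body, still had 54 body reads in the 2 WT normoxia libraries. *LOC105370526* went from 2.85 and 2.48 body CPM in WT normoxia to 68.8 and 123 CPM in WT hypoxia, and its TSS reads from 29.8 and 52.7 to 167 and 291 CPM. HIF1A-/- cells had 10.5 and 4.78 body CPM in normoxia and 9.15 and 7.70 CPM in hypoxia. Both ends were lower in HIF1A-/- than in WT hypoxia, by -1.89 ± 0.29 at the TSS (edgeR adjusted p = 0.0114) and -3.51 ± 0.43 over the body (adjusted p = 0.00741).

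Over the 47 HIF targets found in the table, of which 45 were tested in the body, 35 were lower and 1 higher in HIF1A-/- hypoxia, with a median of -1.63. Of all genes, 2.79% were lower and 1.47% higher. The ratio was higher at 19 of 43 and lower at 0, against 0.469% and 0.248% of all genes. TSS reads were lower at 6 of 43 and higher at 1, against 0.664% and 0.440%. The list was written with earlier results of these data known, so that these counts are no independent support. Of 44 pausing factor genes tested in the body, 0 were called by edgeR, and their median of 0.09 lay beside 0.00 over all genes.

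A genotype difference, present at both oxygen levels, was clearest at *LINC00673*. TSS reads were 1286 and 1664 CPM in WT normoxia, 1446 and 1436 CPM in WT hypoxia, and 653 to 768 CPM in the 4 HIF1A-/- libraries. Body reads were 261 and 407 CPM, then 557 and 819.6 CPM in WT hypoxia, but 30.5 to 50.1 CPM in HIF1A-/- cells. The difference was larger over the body than at the TSS, and the ratio stood at 151 to 361 in WT libraries and at 951 to 1243 in HIF1A-/- libraries. In hypoxia the lines differed by -1.04 ± 0.16 at the TSS (edgeR adjusted p = 0.0112), by -4.08 ± 0.31 over the body (adjusted p = 0.00117) and by 3.03 ± 0.28 in the ratio (adjusted p = 1.03e-04), the smallest adjusted p of the ratio among strongly paused genes. *CEMIP*, a hyaluronan-degrading factor gene, and *SLIT2*, a secreted axon guidance ligand gene, were lower over the body by -2.47 and -2.21 (edgeR adjusted p = 0.0440 and 0.0592), and both were likewise named after their values were seen.

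At the zinc finger pseudogene *ZNF702P* TSS reads were near 0 in HIF1A-/- cells. It had 37 and 70 TSS reads in WT normoxia and 51 and 66 in WT hypoxia, but HIF1A-/- libraries had 0 and 0 in normoxia, then 1 and 2 in hypoxia (edgeR adjusted p = 0.0118 in hypoxia). Body reads were 34 and 51 in WT hypoxia and 7 and 4 in HIF1A-/- hypoxia, so that the ratio there rests on few reads. A count of 0 allows up to 3 reads a library, and these limits cover counting error only.

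Fewer genes were higher in HIF1A-/- hypoxia. *SAMD5* had 34.9 and 28.9 body CPM in WT hypoxia and 92.1 and 115 CPM in HIF1A-/- hypoxia, a difference of 1.69 ± 0.21 (edgeR adjusted p = 0.00741). Its TSS reads overlapped (143 and 121 against 132 and 161 CPM), and its ratio was lower by 1.56 on the log2 scale (-1.56 ± 0.21, edgeR adjusted p = 0.00141). *SEMA6A*, a transmembrane semaphorin gene, had 23.2 and 28.4 against 84.3 and 68.4 body CPM (1.56 ± 0.27, edgeR adjusted p = 0.0299). *STX11*, a syntaxin gene of cytotoxic granule release, had 4.63 and 4.49 against 10.5 and 11.3 body CPM (1.24 ± 0.25, edgeR adjusted p = 0.0494). Of the 6 genes with higher bodies, 4 were also at least 2-fold higher in HIF1A-/- normoxia than in WT normoxia.

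Ratio calls went with body calls in most genes, which is partly built in, since body reads are the denominator of the ratio. Of the 10 genes with a higher ratio, 9 also had lower body reads, among them 2 with lower TSS reads (*LINC00673* and *LOC105370526*), and of the 3 with a lower ratio 2 had higher body reads. At *USP18*, the protease that removes the interferon-induced modifier ISG15, the ratio was lower by 1.33 on the log2 scale (-1.33 ± 0.25, edgeR adjusted p = 0.0235), with neither region called alone. Only 54% of tiles from its body placed uniquely. *HAP1*, encoding huntingtin-associated protein 1, had 5.11 and 3.56 body CPM in WT hypoxia against 9.54 and 13.6 CPM (1.40 ± 0.29, edgeR adjusted p = 0.0497), and a lower ratio (-1.24 ± 0.29, adjusted p = 0.0852). At the TSS, *CA8*, a catalytically inactive carbonic anhydrase gene, was higher by 1.10 ± 0.22 (edgeR adjusted p = 0.0471) and the neuropeptide gene *NMU* by 0.72 ± 0.15 (edgeR adjusted p = 0.0532).

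Calls at named genes varied in how far they held when 1 library was left out. An omission leaves a single library in its group, so that a call can be lost through a weaker test alone. Over the 9 alternative fits the body difference of *STX11* ran only from 1.20 to 1.30, while that of *ANGPTL4* ran from -2.44 to -1.13. The body calls of *LINC00673*, *P4HA1*, *QSOX1*, *SAP30*, *LOC105370526*, *SAMD5* and *EGLN3* held in all 9 alternative fits, and the ratio calls of *LINC00673*, *P4HA1* and *SAMD5* in all 10. The body call of *NDRG1* was lost without replicate 1 of HIF1A-/- hypoxia or replicate 2 of WT hypoxia (highest adjusted p = 0.167). That of *ANGPTL4* was lost without either HIF1A-/- hypoxia library or replicate 2 of WT hypoxia (0.256), as were those of *ZNF702P* (0.189) and *HAP1* (0.357). *SEMA6A* lost its call without replicate 1 of HIF1A-/- hypoxia or either WT hypoxia library (0.181), and *STX11* without any of the 4 libraries (0.333). The ratio call of *EGLN3* was lost without replicate 2 of WT hypoxia (0.147), and those of *NDRG1*, *EGLN3*, *ANGPTL4*, *QSOX1* and *LOC105370526* when TSS reads were scaled by body sizes. *PDK3*, *CEMIP* and *SLIT2* each lost their body call without replicate 1 of HIF1A-/- hypoxia and without replicate 2 of WT hypoxia (highest adjusted p 0.268, 0.280 and 0.326), *CEMIP* also without replicate 2 of HIF1A-/- hypoxia and *SLIT2* also without replicate 1 of WT hypoxia. The ratio calls of *USP18*, *QSOX1* and *LOC105370526* were lost without any 1 of the 4 libraries, and the ratio calls of *ANGPTL4* and *HAP1* without any 1 of them except replicate 1 of WT hypoxia. The TSS calls of *LINC00673*, *LOC105370526*, *SAP30*, *ZNF702P*, *CA8* and *NMU* were each lost without replicate 1 of HIF1A-/- hypoxia and without replicate 2 of WT hypoxia. That of *SAP30* was lost also without replicate 1 of WT hypoxia, that of *ZNF702P* also without replicate 2 of HIF1A-/- hypoxia, and those of *CA8* and *NMU* without either of these. With TSS reads scaled by body sizes *CA8* and *NMU* differed by 0.63 and 0.22 and were not called.

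**Figure D4:**
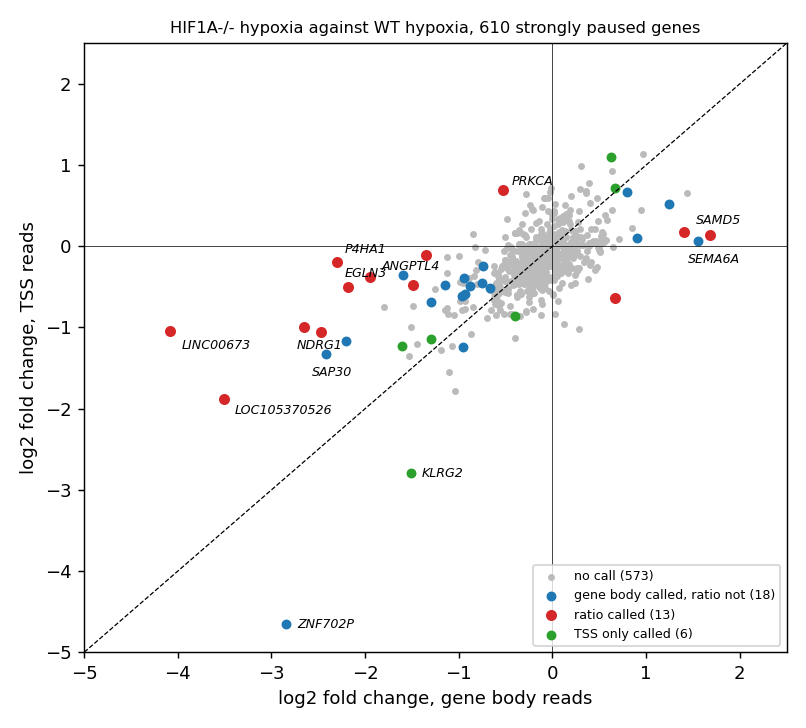
Log2 fold change of TSS reads (vertical) against that of gene body reads (horizontal) in HIF1A-/- hypoxia against WT hypoxia for the 610 strongly paused genes, coloured by which edgeR call at 10% FDR they met, with a dashed line where both regions change equally. The 13 genes with a ratio call lie off the dashed line, led by *LINC00673* at -4.08 in the body and -1.04 at the TSS.

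The other 4 promoters with the most TSS reads did not pass the test between the hypoxic lines. *HIST1H2BD* had 1199 and 1140.2 TSS CPM in WT hypoxia and 1319 and 1318 CPM in HIF1A-/- hypoxia, which do not overlap (0.16 ± 0.13, edgeR adjusted p = 0.627). *ZNF143* had 655 and 781 against 557 and 724 CPM (-0.18 ± 0.23, adjusted p = 0.757), and *INTS2* 621 and 577 against 694 and 579 CPM (0.07 ± 0.15, adjusted p = 0.877). *TNFSF9* had 671 and 723 against 786 and 777 CPM, which do not overlap either (0.15 ± 0.13, edgeR adjusted p = 0.650).

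How the body was measured changed the list at its edges. Removing from each body length the bases that another counted region covers on the same strand kept 596 of the 610 genes. Scaling both lengths by the share of uniquely placed tiles kept 535 and added 9 others, and both corrections together kept 522. In 24 strongly paused genes (3.93%) under 50% of body tiles placed uniquely, against 1.12% of genes with a ratio of 16 to 64 and 0.605% of those under 16. These checks were chosen after the genes were known.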

How the data were processed

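PRO-seq counts of 8 libraries (4 groups of 2, grouped by their titles) were used. Per the labels and methods, the authors aligned trimmed reads to GRCh37 with HISAT2 2.1.0, kept mapping quality above 10 (SAMtools 1.5), and counted reads with featureCounts (Subread 1.6.2). The deposited counts give 1 TSS region and 1 gene body per gene and were not normalized. The authors merged 2 sequencing runs per library.

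Genes, lists and sequence windows were chosen with earlier results of these data known. Counts were tested with edgeR 4.0.16 in R 4.3.3 (quasi-likelihood, TMM, 8 libraries in 1 fit, genes over 0.5 CPM in 2 libraries, FDR 10%). The ratio was tested as a TSS-by-group term with 1 term per library, each table having its own TMM sizes. Standard errors were derived from the test statistic. Comparisons with WT normoxia, which chose the genes, are descriptions.

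On simulated data for HIF1A-/- against WT hypoxia with 100 genes changed 2-fold and 100 changed 4-fold, edgeR recovered 73% and 99% for TSS reads (15199 genes), 62% and 100% for bodies (16531 genes), and 19% and 94% for ratios (14385 genes). The simulated counts had the same fixed spread for all genes and no shared deviation of same-numbered replicates. Only genes above a minimum of total reads were changed. These shares therefore do not measure how many real changes were detected.

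Named genes were the 10 highest ratios, the 5 with most TSS reads, up to 3 called genes per comparison and direction by p with both libraries of one group on one side of the other, listed HIF targets, and the threshold neighbours. The partner pairs, the largest ratio decreases and the other genes of a described set were chosen after their values were seen. Alternatives were DESeq2 1.42.0, library totals without TMM, no filter, a replicate block, TSS reads scaled by body sizes, only the 4 libraries compared, and each library left out. Libraries with the same replicate number deviated together from their group means in all 6 pairs of groups (correlations across genes 0.217 to 0.522 for TSS, 0.493 to 0.844 for bodies), although the labels do not state a shared batch.

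Unique placement was measured by aligning 75-base tiles (at most 100 per body) to GRCh37 with minimap2 2.31. Sequences were read from the GRCh37 genome, and gene types from RefSeq (GRCh38.p14) by Entrez ID. Total depth is given with the results. Intervals of counting are not printed, since the spread between libraries is larger.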

Additional observations from a re-analysis of the deposited data

How the results depend on the processing

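For HIF1A-/- hypoxia against HIF1A-/- normoxia, 0 genes were called in TSS reads, body reads and ratio under each alternative run. For HIF1A-/- against WT hypoxia the TSS count of 10 became 76 with no filter on low counts, 143 with the replicate block, 23 with TSS reads scaled by body library sizes, and 52 with only the 4 libraries compared. The range was 0 to 6 with 1 library left out, and the lone library was then assumed to vary like the other groups. The body count of 29 became 44 with DESeq2 and, blocked by replicate, 183, with a range of 7 to 18 when 1 library was left out. The ratio count of 13 became 20 with no filter, 40 with the replicate block and 23 with the 4 libraries, and ranged from 4 to 8 with 1 left out. The replicate block gave 0 calls in HIF1A-/- cells. The causes were not tested. For HIF1A-/- against WT hypoxia, shares of all genes called are given only for the main fit and the replicate block. Counts under the other settings therefore do not show whether strongly paused genes were called more or less often than all genes. The number of strongly paused genes was 1975 at a ratio of at least 32 and 195 with the threshold at 2 times 64, and lay between 531 and 638 under the other rules. The share at 64 or above in WT hypoxia was 95.6% in replicate 1 alone and 91.3% in replicate 2 alone. The 29 results on single named genes kept their direction in all 277 recomputations and their call in 215. With 2 libraries a group and as few as 4 body reads of a strongly paused gene in a library, modest ratio changes were often not detectable.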
